A study of Mus musculus with 8 samples.

Results

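The nuclear genes that encode subunits of the mitochondrial respiratory chain and of ATP synthase were followed in liver of mice on a high fat-high sucrose (HFHS) diet. All probe sets annotated to a single gene whose symbol begins with Ndufa, Ndufb, Ndufc, Ndufs, Ndufv, Uqcr, Cox4, Cox5, Cox6, Cox7, Cox8 or Atp5 were taken, and the assembly factors that begin with Ndufaf were left out. This gave 160 of 45037 probe sets and 78 of 18193 genes, with 78 probe sets of 36 genes in complex I, 16 of 8 in complex III, 35 of 17 in complex IV and 31 of 17 in ATP synthase. Pemt-/- mice, which lack the gene for phosphatidylethanolamine N-methyltransferase, were compared with Pemt+/+ mice that have it. Both genotypes ate the HFHS diet, and no array of mice on standard chow was analysed here. Total liver RNA was hybridised to 1 array per genotype after 1, 2, 3 and 4 weeks, so each genotype had 4 arrays. The study's methods describe male mice, and the sources used here give neither the age at sampling nor the strain. They give 4 mice per genotype with livers taken over the 4 weeks, which matches the 4 arrays in number, but do not state that each array held RNA of 1 mouse. A p-value over the 4 weeks therefore measures the spread between these arrays. As the RNA came from whole liver, fewer cells of a type and less RNA per cell cannot be told apart.

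The respiratory chain passes electrons from NADH through complex I, coenzyme Q, complex III, cytochrome c and complex IV to oxygen, and pumps protons across the inner mitochondrial membrane as it does so. ATP synthase lets the protons flow back through a rotating ring of c subunits and uses that flow to make ATP. Hepatocytes are rich in mitochondria, which burn fatty acids there, and phosphatidylethanolamine and phosphatidylcholine, the substrate and the product of the Pemt reaction, are the main lipids of the inner membrane. Most subunits are encoded in the nucleus, and several have isoforms restricted to muscle, testis or brown fat.

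The targeted gene checked the labels. Pemt itself had an intensity of 224 ± 26.4 (SD, n = 4) in the knockout livers and of 5543 ± 437 (SD, n = 4) in the wild-type livers, a 23.2-fold difference. Intensity, the deposited linear brightness of a probe set, had been scaled to the same trimmed mean on every array. Most defining hepatocyte markers were bright in both genotypes. Dimmer ones were Cebpa, at means of 1956 in Pemt-/- and 3362 in Pemt+/+, and the probe set of Ass1, at 401 and 377. The summed intensities of all the hepatocyte markers ran from 442246 to 571517 in Pemt-/- and from 641201 to 682432 in Pemt+/+. Of the 19 markers 16 were lower in the knockout. So were 49.3% of the 304 probe sets above an intensity of 20000 outside the subunit list. The array of Pemt+/+ at week 4 stood apart from the others. It held adipocyte transcripts far above the other arrays, with Adipoq at 1081, Cidea at 832 and the brown fat uncoupling protein gene Ucp1 at 654, against at most 62.1, 38.5 and 8.04 on the other 7 arrays. The 5 adipocyte markers summed to 3406 on that array and to between 65 and 174 on the others. The counts are therefore also given without week 4.

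Subunit transcripts were lower in the knockout in every complex. The median intensity of the 146 member probe sets tested was 9595, 10475, 8898 and 7799 in Pemt-/- at weeks 1, 2, 3 and 4, and 11232, 11591, 11808 and 10885 in Pemt+/+. All 4 knockout arrays thus lay below all 4 wild-type arrays, and the array with adipocyte transcripts was the lowest of the wild type. Over the 4 weeks, 63 of 146 probe sets were lower in Pemt-/- and 0 were higher (limma, adjusted p under 0.05), where 5.86% of all 27022 probe sets tested were lower and 10.3% higher. At an unadjusted p under 0.05, 96 members were lower and 0 were higher, where 8407 of all 27022 probe sets passed in either direction. With a mean intensity of 5000 or more, 84 of 107 members and 964 of all 1731 probe sets passed that cut. Taking for each gene its probe set of the highest mean, 39 of 74 genes were lower, with 18 of 34 in complex I, 4 of 8 in complex III, 6 of 15 in complex IV and 11 of 17 in ATP synthase. The share over all genes was not counted in this form, which favours bright probe sets. With probe sets averaged per gene instead, 7.15% of all 10916 genes tested were lower. Of 42 genes with 2 or more probe sets tested, 8 were lower in all of them, 17 in some and 17 in none. The differences were small. The median log2 difference was -0.33, a 1.26-fold lower signal, against 0.02 over all probe sets tested, and the 63 lower probe sets were 1.23-fold to 1.49-fold lower. The complexes lay close together, at medians of -0.32 in complexes I, III and IV and -0.33 in ATP synthase. In 97 of 146 probe sets the knockout was below the wild type in all 4 weeks, as in 16.7% of all probe sets. In 68 the 4 knockout arrays lay below all 4 wild-type arrays, as in 8.96% of all, and in 0 above them, as in 12.8% of all. The count of lower members was 18 without week 1, 82 without week 2, 0 without week 3 and 2 without week 4, while the median stayed between -0.37 and -0.27. Of all probe sets tested 3.32%, 6.85%, 1.78% and 2.12% were lower in the same order. After quantile normalization the count of lower members was 14, 12 of them among the 63, with a median of -0.16, against 6.4% of all probe sets. It was 1 when the variance was not modelled on intensity, against 2.34% of all, and that 1 was not among the 63. Members were thus called lower no more often than all probe sets without week 3, without week 4 and without the intensity trend.

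**Figure D1:**
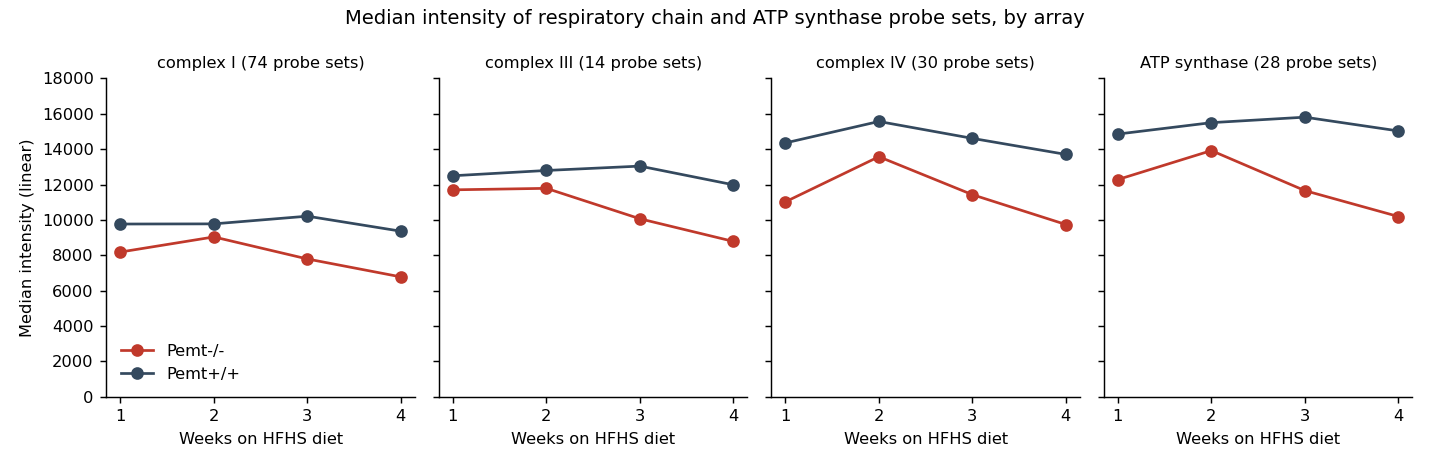
Median intensity (linear) of the tested member probe sets of each complex against weeks on the HFHS diet, where every array is 1 point, drawn in red for the knockout and in dark grey for the wild type. The red points lie below the dark grey points at every week in all 4 panels, and the gap is widest at week 4 in each panel and narrowest at week 2 in all but complex III, where it is narrowest at week 1.

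Brightness moved with this result. Most subunit probe sets were among the brightest on the array, and bright probe sets as a whole leaned lower in the knockout. Of the 107 members with a mean intensity of 5000 or more, 60 were lower (56.1%) and 0 higher, with a median log2 difference of -0.34. Of all 1731 probe sets in that range 31.4% were lower and 6.47% higher, and the 1624 of them that were no members had a median of -0.17. Of the bright members 61 had all knockout arrays below the wild type and 0 above it, against 33.7% and 8.78% of all bright probe sets, and 82 were lower in every week, against 45.1%. Between 10000 and 20000 the medians were -0.36 for 57 members and -0.16 for 494 others, and above 20000 they were -0.36 for 20 members and -0.31 for 304 others. Among the 39 dimmer members 3 were lower, against 4.11% of all probe sets under 5000. When each array was centred on its bright probe sets, a scaling chosen after seeing the data, the median over all probe sets moved to 0.19, 20 members remained lower, 0 were higher and their median was -0.16. Of all probe sets 3.07% were then lower and 18% higher. Centring on the median of all probe sets kept moved the median over all to -0.14, and 90 members were lower with a median of -0.49, where 12.1% of all probe sets were lower. The cytosolic ribosomal protein genes, with a median intensity of 15204, had a median difference of -0.02, and 3 of 50 were higher and 0 lower.

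**Figure D2:**
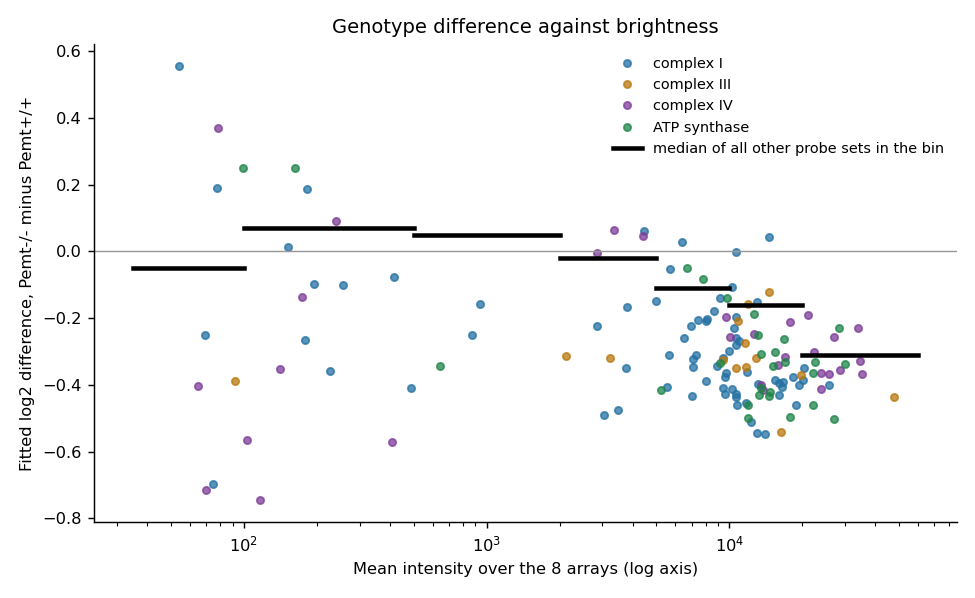
Fitted log2 intensity difference, Pemt-/- minus Pemt+/+, against mean intensity over the 8 arrays on a log axis. Each point is 1 member probe set coloured by complex, and black bars are the medians of all other probe sets in each intensity bin, which fall from 0.07 between 100 and 500 to -0.31 above 20000. Most bright members lie below the bar of their bin, and members above 0 are mostly dim.

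Within single weeks the difference was smallest at week 2 and largest at week 4. The week 4 pair includes the Pemt+/+ array with adipocyte transcripts, and their part in that difference was not tested. The median log2 difference of the members was -0.25, -0.14, -0.41 and -0.47 at weeks 1, 2, 3 and 4, while that of all probe sets tested was 0.05, -0.01, 0.02 and 0.04. After quantile normalization the members' medians were -0.095, -0.049, -0.18 and -0.26, in the same order of weeks. With 1 array per genotype a single week holds no test. The knockout was below the wild type in 127, 110, 133 and 137 of 146 members, where the share over all probe sets was 45.7%, 51.0%, 48.3% and 47.0%. A fall of 1.5-fold or more was seen in 5, 7, 19 and 36 members, against 11.3%, 14.1%, 14.2% and 14.5% of all probe sets, and a rise of that size in 3, 2, 1 and 2, against 16.9%, 14.7%, 18.9% and 20%. Set against all probe sets, falls of that size were thus no more common among the members until week 4, where 36 of 146 passed. That week 4 count was smaller after quantile normalization, as given in the last section, and its share over all probe sets was not counted there. Of the 107 members with a mean intensity of 5000 or more, 2, 1, 9 and 25 fell 1.5-fold or more at weeks 1 to 4. Of the 1624 other probe sets of that brightness, 220, 103, 309 and 332 did. Ratios of 0.5 or less were found in 1, 2, 2 and 2 members, against 4.09%, 5.66%, 5.61% and 5.85% of all probe sets, and ratios of 2 or more in 0, 1, 0 and 1, against 7.56%, 6.5%, 9.79% and 10.2%. The order of weeks held in each complex. Complex I had medians of -0.24, -0.13, -0.42 and -0.48, and complex III of -0.14, -0.13, -0.43 and -0.53. Complex IV had medians of -0.29, -0.14, -0.36 and -0.42, and ATP synthase of -0.26, -0.17, -0.41 and -0.53. Of the 146 members, 94 had their smallest fall or a rise at week 2, and 87 had their largest fall at week 4. Other bright probe sets had weekly medians of -0.17, -0.07, -0.20 and -0.21, in the same order of weeks. The knockout array of week 2 was the one at which 104 members reached their highest knockout value, and 110 were lowest in the knockout at week 4. These 4 counts of members were not made over all probe sets. The median knockout intensity of the 1624 other bright probe sets was 9145, 10057, 9194 and 9012, also highest at week 2 and lowest at week 4.

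**Figure D3:**
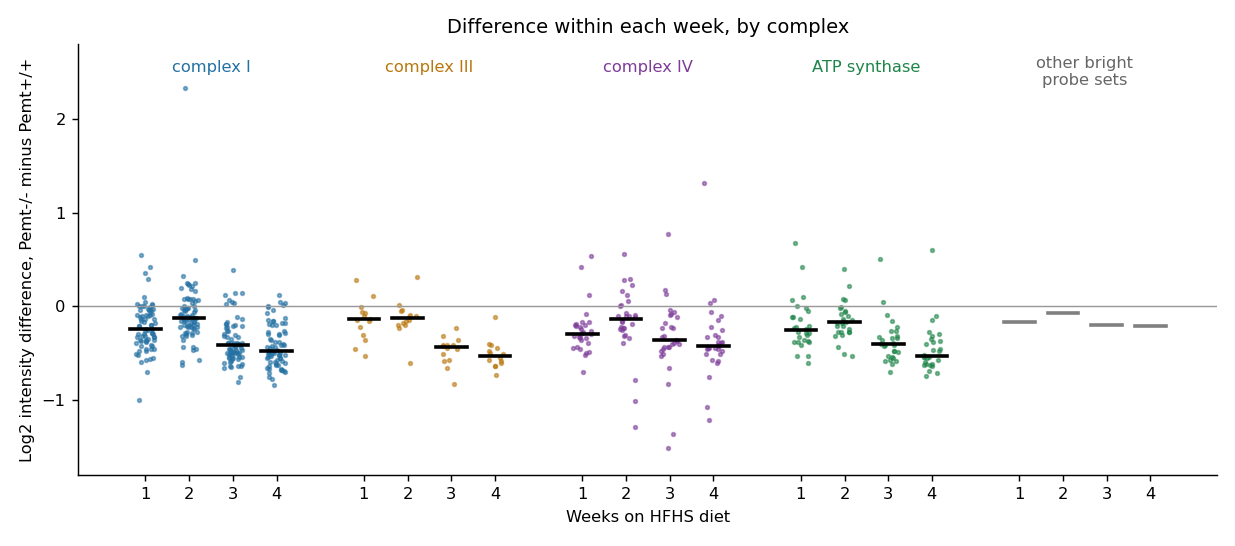
Log2 intensity difference, Pemt-/- minus Pemt+/+, within each week of the HFHS diet. Coloured points are the tested member probe sets of each complex, black bars their medians, and grey bars the medians of the 1624 other probe sets with a mean intensity of 5000 or more, and each week is a single pair of arrays. The black bars are nearest 0 at week 2, or level with week 1 in complex III, and lowest at week 4, from -0.42 to -0.53.

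Promoter letters are shown for some of the subunits that were lower and for 1 that was not. RefSeq windows of 300 bases (GRCm38.p6), reaching from 250 bases before the annotated start, were found for 64 of the 78 genes. They were searched on both strands for CCGGAAG, the core bound by ETS factors such as GABP, for GCATGCG, the core of the site of nuclear respiratory factor NRF1, and for AAGATGG, the core of a YY1 site. A full NRF1 site holds its core on both strands, neighbouring motifs can share letters at their ends, and each gene was counted once per motif. CCGGAAG or its reverse complement CTTCCGG stood in 15 of 64 member genes (23.4%), in 18.6% of the 10404 genes tested that had a window and in 9.93% of all 27025 genes. The NRF1 letters stood in 9 (14.1%, against 6.81% and 4.01%) and the YY1 letters in 10 (15.6%, against 8.21% and 7.28%). Of the 15 genes with the ETS letters 10 were lower, with a median of -0.41, and of the 46 tested genes without them 24 were lower, with a median of -0.33. The same counts were 6 of 9 and 28 of 52 for the NRF1 letters and 5 of 10 and 29 of 51 for the YY1 letters, all descriptions with no test. Genes with the ETS letters that did not pass, such as Uqcrh, have no window below. The windows shown are those of the gene of each complex with the smallest p among those with the ETS letters. The last window holds the NRF1 letters of Atp5g2, a c ring gene whose difference was -0.05. Each window reads 5′ to 3′ on the strand of the gene, with the motif in capitals. They come from chr19:3912741-3912770 (minus strand), chr10:80406869-80406898 (minus), chr5:115348956-115348985 (minus), chr11:115419939-115419968 (minus) and chr15:102671069-102671098 (minus).
Ndufs8: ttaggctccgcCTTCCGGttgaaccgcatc
Uqcr11: ttctctcctccCCGGAAGtagatgtcaatg
Cox6a1: ccccatttccgCTTCCGGcgcgccggtgta
Atp5h: caaggagagaaCTTCCGGcaactctcttcc
Atp5g2: gctccggccgcGCATGCGcagagccttccc

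Complex I takes electrons from NADH, and its core subunits carry the flavin and the iron-sulfur clusters while accessory subunits surround them. Of 6 core genes tested 3 were lower, with a median of -0.40, and of 28 accessory genes 15 were lower, with a median of -0.35. Ndufs8, a core iron-sulfur subunit, measured 12287, 10323, 8857 and 11068 at weeks 1 to 4 in Pemt-/- and 15320, 15974, 15568 and 14828 in Pemt+/+. The groups did not overlap, and the knockout was 1.46-fold lower, at -0.55 ± 0.10 SE on the log2 scale (limma, adjusted p = 0.00892). All 6 Ndufs8 probe sets lay below 0 in each of the 4 weeks, and 5 of them passed. Ndufv3, an accessory subunit beside the flavin site, measured 10553, 14252, 11046 and 9806 in Pemt-/- and 15709, 17362, 17391 and 15630 in Pemt+/+. Its 4 knockout values lay below all wild-type values, and it had the smallest p of the members (-0.55 ± 0.09 SE, adjusted p = 0.00655). These 2 genes gave the only member calls left without week 4, and neither passed without week 3 (adjusted p = 0.0529 for Ndufv3 and 0.066 for Ndufs8).

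Ndufs3, a core subunit of the peripheral arm, measured 8818, 10740, 9159 and 7619 in Pemt-/- and 11825, 12526, 12666 and 11808 in Pemt+/+ (-0.44 ± 0.09 SE, adjusted p = 0.0155). Ndufa1, a small accessory subunit of the membrane arm, measured 22473, 24565, 21519 and 20351 against 28941, 29785, 30123 and 28320 (-0.40 ± 0.08 SE, adjusted p = 0.0127). In both the genotypes were separate at every week. Ndufb2, another accessory subunit of the membrane arm, fell in its brightest probe set (-0.41 ± 0.09 SE, adjusted p = 0.0175), and its other 2 did not pass, at -0.26 and -0.70. The probe set of Ndufv1, which binds the flavin, was lower at -0.41 (adjusted p = 0.020), and so were its other 2, at -0.43 and -0.31. Not every complex I gene followed. Ndufa2 had a difference of -0.002 ± 0.097 SE, and Ndufc1 one of 0.04 in the brighter of its probe sets and 0.03 in the other. Ndufa8 and Ndufb7 were at -0.11 and -0.14 and did not pass. Probe sets of 1 gene did not always tell the same: of the 4 for Ndufc2, 1 was lower at -0.39 (adjusted p = 0.023) while another, at an intensity of 5604 in Pemt-/- and 5784 in Pemt+/+, was at -0.05.

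**Figure D4:**
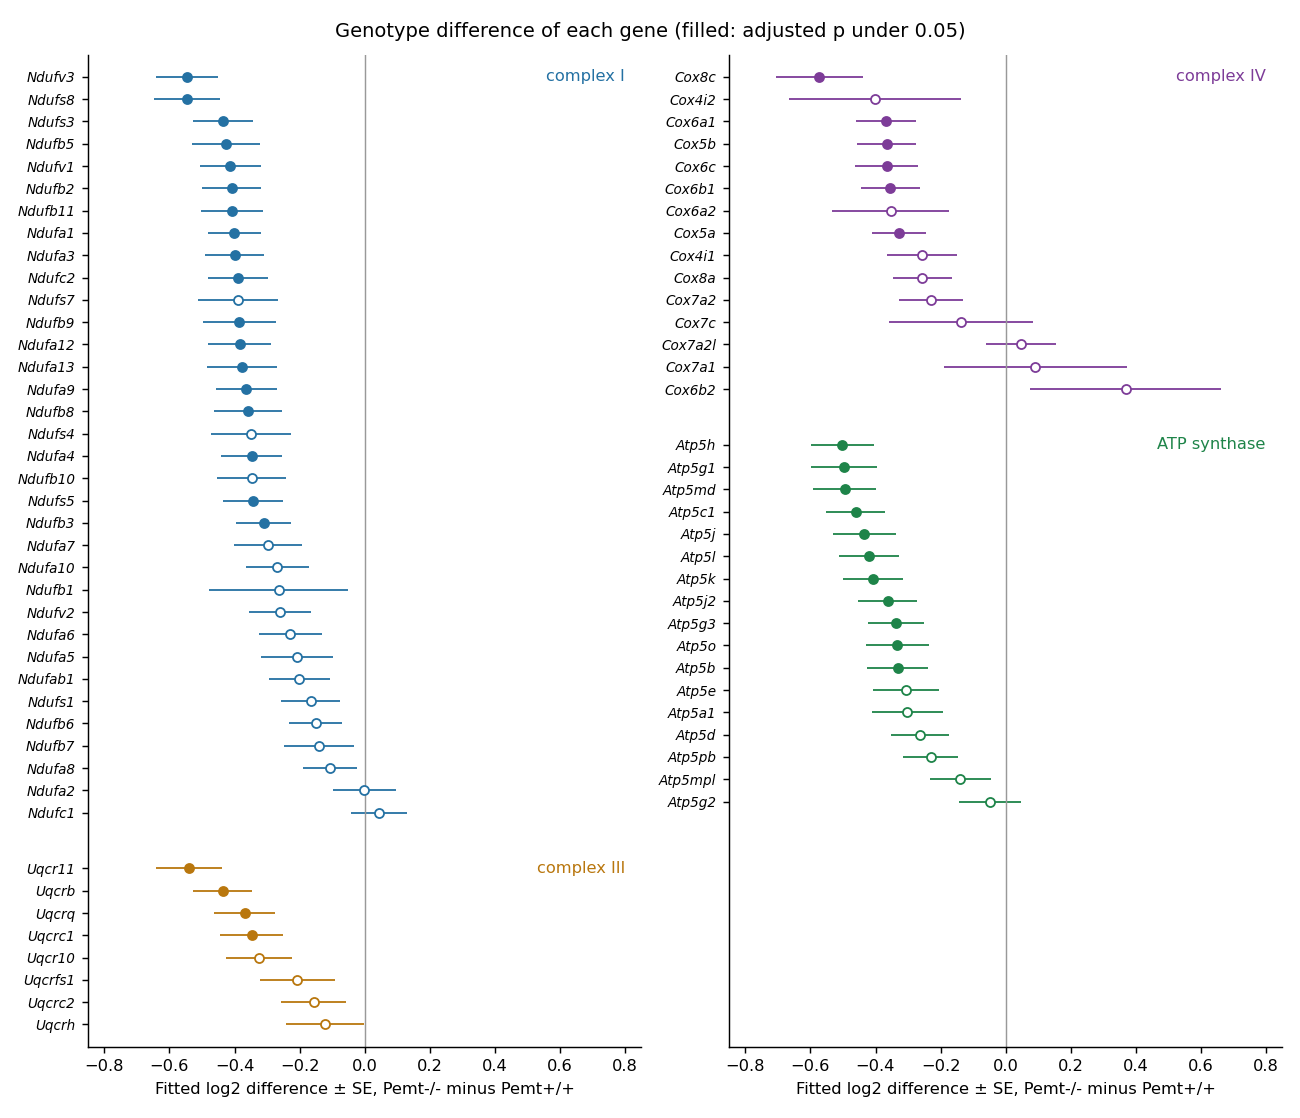
Fitted log2 intensity difference ± SE, Pemt-/- minus Pemt+/+, for the 74 member genes tested, each by its probe set of the highest mean, ordered within each complex and coloured by it. Filled symbols passed an adjusted p of 0.05 and lie between -0.57 (Cox8c) and -0.31 (Ndufb3), and the 4 genes above 0, which are Ndufc1, Cox7a2l, Cox7a1 and Cox6b2, are open.

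Complex III hands electrons from coenzyme Q to cytochrome c. Uqcr11, one of its small subunits, measured 12644, 16224, 12930 and 11500 in Pemt-/- and 18262, 19135, 20456 and 19111 in Pemt+/+, and was 1.45-fold lower (-0.54 ± 0.10 SE, adjusted p = 0.00892). Uqcrb, a subunit at the cytochrome b core, measured 38958, 47667, 38383 and 37493 against 53355, 54627, 57748 and 53306 (-0.44 ± 0.09 SE, adjusted p = 0.0133). The week 2 array was the highest of the knockout in both genes and still below every wild-type array. The dimmer probe set of Uqcrb also had no overlap but did not pass, at -0.35 (adjusted p = 0.0767). Uqcrc1, a core protein of the complex, and Uqcrq, a small subunit, were lower at -0.35 ± 0.10 SE (adjusted p = 0.0422) and -0.37 ± 0.10 SE (adjusted p = 0.0308). Uqcrfs1, the Rieske iron-sulfur protein, had another course in time. It measured 12604, 11279, 8852 and 7975 in Pemt-/- and 11706, 11625, 11788 and 11145 in Pemt+/+, so the knockout lay above the wild type at week 1 and below it at weeks 3 and 4, and the fit over the 4 weeks did not pass (-0.21 ± 0.12 SE, adjusted p = 0.261). Uqcrh, Uqcrc2 and Uqcr10 did not pass either, at -0.12, -0.16 and -0.32.

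Complex IV reduces oxygen to water, and many of its nuclear subunits come in a widely expressed and a tissue-restricted isoform. Of the widely expressed subunits, Cox5a measured 30998, 34748, 29102 and 27684 in Pemt-/- and 37473, 39697, 38571 and 37588 in Pemt+/+, with no overlap (-0.33 ± 0.08 SE, adjusted p = 0.0294). Of its other 2 probe sets 1 was lower, at -0.30 (adjusted p = 0.0352), and in the other the groups overlapped, at -0.19 (adjusted p = 0.178). Cox6a1, the isoform used in liver, measured 29224, 35787, 29218 and 29006 against 39766, 38414, 40777 and 39380 (-0.37 ± 0.09 SE, adjusted p = 0.0283). Its second probe set did not pass, with overlapping groups, at -0.21 (adjusted p = 0.119). Cox5b was lower at -0.37 ± 0.09 SE (adjusted p = 0.0271), and the next 3 of its probe sets by mean intensity were lower too, at -0.41, -0.42 and -0.40. Cox6b1 and Cox6c fell as well, at -0.36 (adjusted p = 0.0302) and -0.37 (adjusted p = 0.0355), though the second Cox6b1 probe set did not pass, at -0.25 (adjusted p = 0.0847). These are accessory subunits around the catalytic core, which is encoded in mitochondrial DNA. Cox4i1 and Cox7a2 did not pass in their brightest probe sets, at -0.26 (adjusted p = 0.141) and -0.23 (adjusted p = 0.149), with knockout values at week 2 of 31504 and 37022 above the wild-type values of 29078 and 35540. A dimmer probe set of Cox7a2 did pass, at -0.32 (adjusted p = 0.045). Cox8a was at -0.26 (adjusted p = 0.0928). Cox7a2l, a factor that joins complexes III and IV into supercomplexes and is itself no regular subunit, stayed near 0 in all 3 of its probe sets, at 0.05, 0.06 and -0.006.

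Isoforms known from other tissues had low intensities, and 1 of them marked the array that stood apart. Cox8b, an isoform of heart, skeletal muscle and brown fat, measured 44.9, 3.15, 3.11 and 11.1 in Pemt-/- and 8.34, 6.33, 11 and 808 in Pemt+/+. The high value was that of week 4 in the wild type, the array with Ucp1 at 654, and its mean log2 value over the 8 arrays was too low to enter the test. Cox7a1, the muscle and brown fat partner of Cox7a2, was highest on the same array, at 411, against 130 to 251 on the other wild-type arrays and 186 to 274 in the knockout (fitted difference 0.09 ± 0.28 SE, adjusted p = 0.86). Without week 4 its fitted difference was 0.48 ± 0.21 SE (adjusted p = 0.207). Summed muscle markers lay at 649 to 953 in Pemt+/+ and 667 to 730 in Pemt-/-. Cox6a2, another muscle isoform, measured 137 in the wild type at week 4, the lowest of its wild-type values, which reached 186. Cox8c, described in testis, measured 369, 344, 291 and 301 in Pemt-/- and 524, 456, 528 and 459 in Pemt+/+, and was lower (-0.57 ± 0.13 SE, adjusted p = 0.0207). A second Cox8c probe set did not pass, at -0.75 (adjusted p = 0.119). Cox4i2, Cox6a2 and Cox6b2 did not pass, at -0.40, -0.35 and 0.37, and Cox7b2 was at 14.1 or less on every array. Ndufa4l2, a hypoxia-induced relative of Ndufa4, was below the filter, at 12.3, 12.4, 35.6 and 12 in Pemt-/- and 55, 95.9, 97.8 and 59.9 in Pemt+/+, without overlap. Ndufa4, named as a complex I gene though its protein is now counted with complex IV, was lower at -0.35 ± 0.09 SE (adjusted p = 0.0369).

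**Figure D5:**
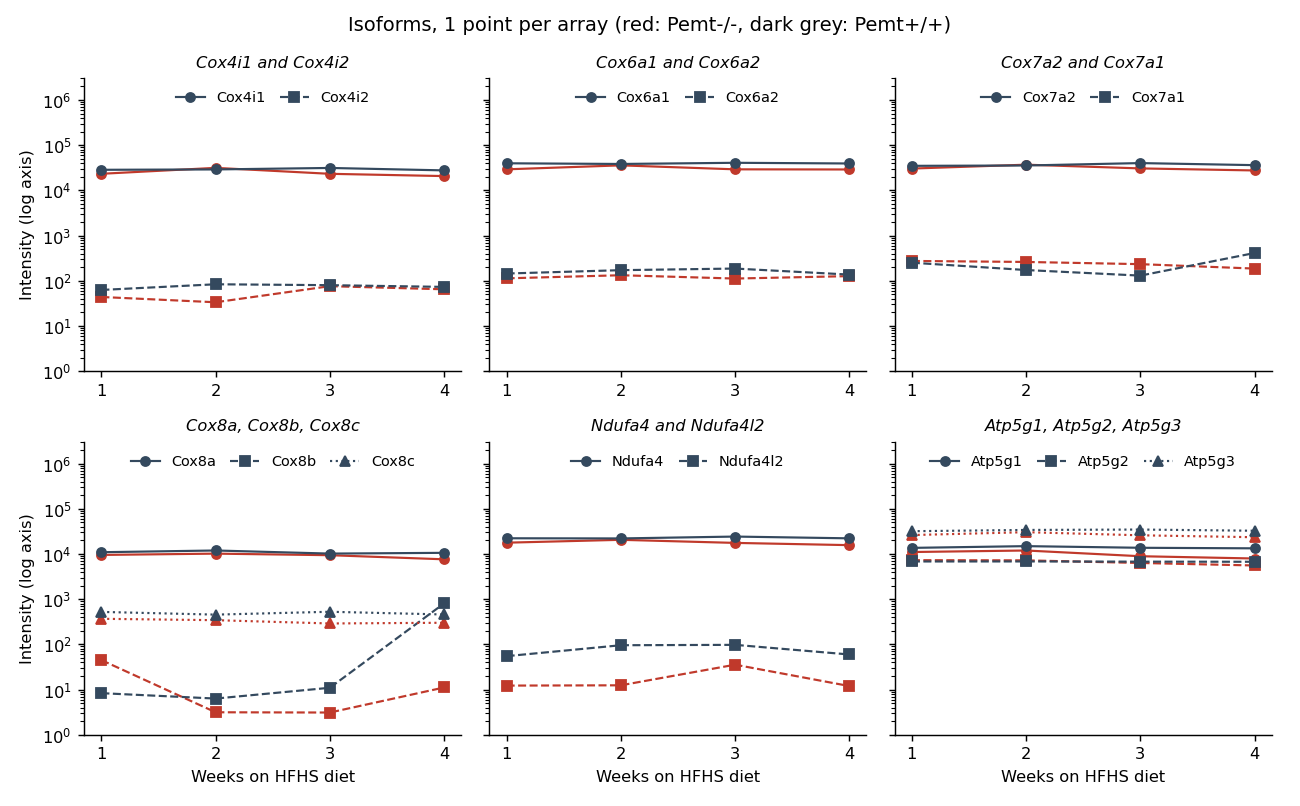
Intensity (log axis) by week of HFHS feeding for isoforms of complex IV subunits, for Ndufa4 and Ndufa4l2 and for the c ring genes of ATP synthase, each gene by its brightest probe set and each array as 1 point. Red is Pemt-/- and dark grey Pemt+/+, and line style tells the genes of a panel apart; Cox8b stands at 808 and Cox7a1 at 411 on the Pemt+/+ array of week 4 alone.

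Of the 17 ATP synthase genes 11 were lower. In the head and central stalk, Atp5c1, the gamma subunit, measured 19189, 21259, 18114 and 16319 in Pemt-/- and 24822, 25740, 27158 and 24970 in Pemt+/+ (-0.46 ± 0.09 SE, adjusted p = 0.0109). The catalytic beta subunit gene Atp5b was lower at -0.33 (adjusted p = 0.043). Atp5a1, the alpha subunit gene, did not pass in its brightest probe set, at -0.30 (adjusted p = 0.094). Of its other 2, 1 passed, at -0.34 (adjusted p = 0.047), and 1, at -0.34, did not. Atp5d and Atp5e, the delta and epsilon subunits, did not pass, at -0.26 and -0.31. In the peripheral stalk, Atp5h, subunit d, measured 21570, 26535, 21429 and 20408 against 28642, 32106, 34946 and 31312, and was 1.42-fold lower (-0.50 ± 0.10 SE, adjusted p = 0.00969), though its second probe set did not pass, at -0.25. Atp5o and Atp5j, the subunits OSCP and F6, were lower at -0.33 (adjusted p = 0.048) and -0.43 (adjusted p = 0.018), whereas Atp5pb, subunit b, was at -0.23 (adjusted p = 0.0992).

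The isoforms of the membrane part did not all pass. Atp5g1, Atp5g2 and Atp5g3 encode the same mature c subunit with different import sequences. Atp5g1 measured 11069, 11963, 8939 and 7958 in Pemt-/- and 13672, 14944, 13740 and 13364 in Pemt+/+, and was 1.41-fold lower (-0.50 ± 0.10 SE, adjusted p = 0.0129). Atp5g3 measured 26286, 30426, 25962 and 23533 against 31982, 34078, 34804 and 32734 (-0.34 ± 0.09 SE, adjusted p = 0.0314). Atp5g2 measured 7310, 7240, 6340 and 5576 against 6840, 6852, 6777 and 6739, above the wild type at weeks 1 and 2 and below it at weeks 3 and 4, with a fitted difference of -0.05 ± 0.10 SE. Whether the 3 genes differed from each other was not tested. Atp5md, known as DAPIT, and Atp5l, subunit g, which both sit where ATP synthase dimers form, were lower at -0.49 ± 0.10 SE (adjusted p = 0.0111) and -0.42 ± 0.09 SE (adjusted p = 0.0164). All 3 probe sets of Atp5k, subunit e, were lower, at -0.41, -0.43 and -0.46, as were the 2 bright ones of Atp5j2, subunit f, at -0.36 and -0.33. Atp5mpl, a small proteolipid of the same part, did not pass, at -0.14.

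The course over the diet was then compared between the genotypes. No member passed the test of a difference in change per week, and neither did any other probe set (limma, 0.0% of 27022). At an unadjusted p under 0.05 there were 12 of 146 members, all with the lower slope in the knockout. Of all 27022 probe sets 1818 passed that cut. The 12 became 37 without week 1, 22 without week 2, 2 without week 3, 0 without week 4 and 4 without the intensity trend. The 1818 became 2443, 2520, 1152, 915 and 1703 in the same order. The median slope was -0.10 per week on the log2 scale in Pemt-/- and -0.01 in Pemt+/+. Slopes were below 0 in 133 of 146 members in the knockout and in 87 in the wild type, and over all probe sets in 12901 and 13740 of 27022. Of the members with a mean intensity of 5000 or more, 106 and 64 of 107 had slopes below 0. Of the 1624 other probe sets of that brightness 986 and 775 did, with median slopes of -0.02 and 0.0. No member passed the test of a change per week in either genotype, where 0.104% of all probe sets passed in Pemt-/- and 0.0% in Pemt+/+. An unadjusted p under 0.05 was found for 40 members in Pemt-/- and 1 in Pemt+/+, against 2784 and 1472 of all 27022 probe sets. The 40 became 106 without week 1, 42 without week 2, 18 without week 3, 3 without week 4 and 17 without the intensity trend. The 2784 became 3814, 3531, 1832, 1157 and 2429 in the same order. Ndufs4, an accessory subunit whose loss can cause Leigh syndrome, had the smallest p for the difference in slope of the members (-0.23 ± 0.07 SE per week, adjusted p = 0.627). It measured 4083, 3460, 3215 and 2585 in Pemt-/- and 4030, 4240, 4279 and 4254 in Pemt+/+, level at week 1 and apart by week 4. A dimmer probe set of Ndufs4, at a mean intensity of 415, went the other way, at 0.23 ± 0.13 SE per week (adjusted p = 0.816). Its differences at weeks 1 to 4 were -0.53, -0.20, 0.38 and 0.03. By p, the dimmer probe set of Uqcrb came next (-0.22 ± 0.07 SE per week, adjusted p = 0.627), and then Uqcrfs1, described above (-0.21 ± 0.07 SE per week, adjusted p = 0.637). The brighter probe set of Uqcrb, whose values are given above, was already below the wild type at week 1. Ndufb5, a membrane arm subunit, measured 10537, 10191, 8825 and 7099 against 12164, 12428, 12558 and 11577, with a slope difference of -0.17 ± 0.07 SE (adjusted p = 0.709), and passed the genotype test at -0.43 (adjusted p = 0.0248). The dim Ndufb1 had a slope difference of -0.37 ± 0.16 SE (adjusted p = 0.709).

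Other genes of the pathway were counted beside the subunits. Of the 4 genes of complex II, which feeds electrons from succinate and was outside the rule, 2 were lower, with Sdhb at -0.42 ± 0.10 SE (adjusted p = 0.0227) and Sdha at -0.38 ± 0.09 SE (adjusted p = 0.0255), and Sdhc and Sdhd did not pass at -0.14 and -0.12. Cyc1, the cytochrome c1 of complex III, was lower at -0.51 ± 0.10 SE (adjusted p = 0.0103), and Cycs, cytochrome c, was at -0.27 (adjusted p = 0.0678). The probe set of ND5, a complex I subunit encoded by mitochondrial DNA, was lower at -0.43 ± 0.11 SE (adjusted p = 0.0322). Assembly factors were counted by complex. Of 14 complex I factors 2 were lower (Ndufaf6 at -0.58 and Ecsit at -0.54) and the list median was -0.10. Of 5 complex III factors 0 passed, with a median of -0.34, and of 18 complex IV factors 1 was lower (Surf1 at -0.49), with a median of -0.09. Of 4 factors of ATP synthase 1 was higher, Atpif1, the inhibitor that blocks its reverse action, at 0.84 ± 0.15 SE (adjusted p = 0.0075), and Tmem70, Atpaf1 and Atpaf2 did not pass, at 0.31, 0.25 and -0.09. Of 7 carriers and porins tested 1 was higher, the muscle-type ADP/ATP carrier gene Slc25a4 at 1.34 ± 0.21 SE (adjusted p = 0.0046), while Slc25a5 was at -0.20 and the phosphate carrier gene Slc25a3 at -0.17. Of 18 regulators of mitochondrial biogenesis and mitochondrial DNA 1 was lower, the coactivator gene Ppargc1b at -0.87 ± 0.11 SE (adjusted p = 0.0022). Ppargc1a, Nrf1, Gabpa and Tfam did not pass, at 0.08, 0.01, -0.11 and -0.21. Of 12 citric acid cycle genes 2 were lower (Fh1 at -0.42 and Idh3b at -0.37), with a list median of 0.02, and of 76 mitochondrial ribosomal protein genes 6 were lower and 3 higher, with a median of -0.09. Of 39 proteasome genes 8 were lower, with a median of -0.18. The members' median by gene was -0.35.

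Markers of cell types moved in the same arrays. The 19 hepatocyte genes had a median of -0.44, below that of the subunits. They were bright, at a median intensity of 38606. The 304 probe sets above 20000 that were no members had a median of -0.31, with 49.3% lower. Of 14 macrophage markers 11 were higher, with a median of 1.73 and summed intensities of 26956 to 46530 in Pemt-/- against 11124 to 15910 in Pemt+/+. All 12 stellate cell and matrix markers were higher, with a median of 1.78 and sums of 43124 to 64293 against 15072 to 21266, as were all 7 proliferation markers, with a median of 3.03 and sums of 5794 to 14763 against 432 to 1388. Of 8 sinusoidal endothelial markers 4 were lower (median -0.33), of 7 cholangiocyte markers 2 were higher (median 0.51), of 5 lymphocyte markers 0 passed (median 0.52), and the erythroid gene Alas2 was lower at -1.49. The part of these shifts in the lower signal of the subunits was not tested.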

How the data were processed

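The deposited values were the linear intensity of each probe set of an Affymetrix mouse expression array (45101 probe sets, 64 of them controls left out), computed by the authors with Affymetrix Expression Console according to the submitters' processing notes. Neither its version nor the summary method was given in the sources used here. A common scale was seen in the deposited values, with a trimmed mean (2% left out at each end) that was equal on all 8 arrays. The annotation of the array paired 34945 probe sets with a single gene, 932 with several and 9160 were unnamed here, and 10 probe sets that held a member among several genes were left out. All 160 member probe sets were matched to RefSeq (GRCm38.p6) with the same symbols. Of these, 27 end in x_at and 17 in s_at, which can match several transcripts.

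Values were transformed as log2(intensity + 16), and folds on that scale understate changes of dim signals. Probe sets with a mean log2 value above the 40th percentile were kept (27022 probe sets, 12949 genes), which left out 14 members of mean intensity 4.59 to 112, and with them Cox7b2, Cox8b, Ndufa4l2 and Ndufb4. For genotype, a linear model of week (categorical) plus genotype was run over all 8 arrays with limma 3.58.1 (R 4.3.3), using lmFit and then eBayes with trend by mean intensity. The test is two-sided, with Benjamini-Hochberg adjustment over all probe sets kept and a threshold of 0.05. Slopes per genotype came from a second model in which week was numeric. Within a week, ratios of the deposited intensities were counted without a test. Genes were named by a rule: up to 5 per complex with the smallest p, the 2 brightest per complex, the isoforms, up to 4 with the smallest p for the slope difference and, of the other lists, up to 2 in each direction, each by its probe set of the highest mean. Others named were chosen after their values were seen. The members, lists and tests were chosen with earlier results of these data known. The number of arrays limits the precision. Alternatives were other filters, pseudocounts and scalings, no intensity trend, no week in the model, probe sets averaged per gene, and leaving out each week. Of these, the centring on bright probe sets, the centring on the probe sets kept and leaving out x_at and s_at, and the letters of the promoter motifs were chosen after seeing the data.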

Additional observations from a re-analysis of the deposited data

Results flagged for a closer look

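The highest or lowest of the 4 arrays of a genotype lay far from the other 3 in 7 of the 132 sets of 4 values examined, where chance alone gives about 1 in 20. Cox8b at week 4 in Pemt+/+ (808, the next 11) and the summed adipocyte markers on the same array (3406, the next 103) were the widest gaps. The knockout array of week 2 was high for Cox6a1 (35787, the next 29224) and Uqcrb (47667, the next 38958). Ndufa4 was high in Pemt+/+ at week 3 (24331, the next 22310), Ndufs4 was low in Pemt+/+ at week 1 (4030, the next 4240), and the dim Ndufa4l2 was high in Pemt-/- at week 3 (35.6, the next 12.4). Without week 4 the members had a median difference of -0.27 and 2 were lower, and without week 2 the median was -0.37 and 82 were lower. Of all probe sets 2.12% and 6.85% were lower in the same order.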

How the results depend on the processing

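The number of lower members (63) and genes (39) depended on the settings, while no member was higher in any of them and no median changed sign. Leaving out 1 week at a time gave 0 to 82 lower members and 0 to 49 lower genes, with 0 to 38 in complex I, 0 to 7 in complex III, 0 to 17 in complex IV and 0 to 20 in ATP synthase. The medians ran from -0.37 to -0.27 in all, from -0.37 to -0.28 in complex I, from -0.39 to -0.24 in complex III, from -0.34 to -0.28 in complex IV and from -0.39 to -0.27 in ATP synthase. Of all probe sets on the array 1.78% to 6.85% were lower in these fits. Of the 63 calls, 18 were kept without week 1, 62 without week 2, 0 without week 3 and 2 without week 4. After quantile normalization 12 of the 63 were kept, and without the intensity trend 0. Without the week as a block, 60 members were lower, 59 of them shared with the 63, where 6.33% of all probe sets were lower. Deviations of the 2 arrays of a week from their genotype means correlated at 0.105, -0.0198, -0.0289 and 0.113 over the 4 weeks, so the weeks did not act as pairs.

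Values are given in the order all members, complex I, complex III, complex IV, ATP synthase and genes. Lower counts were 30, 17, 1, 3, 9 and 17 without the filter, 14, 9, 1, 1, 3 and 5 after quantile normalization, 34, 18, 2, 4, 10 and 19 after median centring, 1, 1, 0, 0, 0 and 0 without the intensity trend, and 20, 10, 2, 1, 7 and 12 when centred on bright probe sets. Of all probe sets tested 2.6%, 6.4%, 4.88%, 2.34% and 3.07% were lower in these 5 settings. When centred on the probe sets kept, complex III had 10, where 12.1% of all probe sets were lower. Averaging probe sets gave 26 lower genes of 72 tested, where 7.15% of all 10916 genes tested were lower. Leaving out x_at and s_at gave 42 of 104, with 20 in complex I, where 5.86% of all probe sets were lower. Medians were -0.16 in all, -0.15 in complex III, -0.074 in complex IV and -0.13 in ATP synthase after quantile normalization. Centred on bright probe sets they were -0.16 in all, -0.15 in complexes I, III and IV and -0.16 in ATP synthase. Centred on the probe sets kept they were -0.49, -0.48, -0.48, -0.48 and -0.49. Of all calls on the array 63.8% were higher, 85.4% when centred on bright probe sets and 37.6% when centred on the probe sets kept. Within weeks 1 to 4 the median was -0.095, -0.049, -0.18 and -0.26 after quantile normalization, with 12 and 14 members 1.5-fold lower at weeks 3 and 4, and 1 each 1.5-fold higher at weeks 2 and 4. After median centring the week 2 median was -0.041. Without the filter 11 and 12 members were 1.5-fold lower at weeks 1 and 2, and 8, 6, 6 and 4 were 1.5-fold higher at weeks 1 to 4. Over all settings, the genes named kept their side of the threshold in 385 fits, lost a call in 129 and gained one in 7. The cause was not tested.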
